A study of Mus musculus with 3 samples.

Results

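Kinesins, the motor proteins that step along microtubules, were described after Kdm1a knock-out in a line of mouse small cell lung cancer (SCLC) cells. The members were taken by symbol, as the rows named Kif or Kifc followed by a number and, for some, a letter, which gave 40 of the 24523 genes in the table. A further 4 symbols that begin with Kif lay outside this rule (Kifap3, Kifc5b, Kif1bp and Kif4-ps). The 40 were sorted by known role into 12 mitotic kinesins, 8 transport kinesins that are enriched in neurons, 9 transport kinesins used in most cell types and 11 others. Of these, 37 had enough counts to be tested. Kif2b, Kif6 and Kif12 did not, with 0 to 11 counts in any library.

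The Kdm1a knock-out group held 2 libraries of SCLC line 3, infected with the lentiviral CRISPR vector carrying guide sg1 or guide sg2 and selected with puromycin. The control group held 1 library of the same line, infected with Lenti-Crispr-V2, for which the labels name no guide, and selected in the same way. Kdm1a encodes LSD1, a histone lysine demethylase. The labels do not say whether the infected cells were cloned, so each library is treated as 1 culture. The question was which transcripts differ with and without Kdm1a. Total counts were 44667861 with sg1, 51066078 with sg2 and 43424212 in the control.

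Kinesins share a motor domain that hydrolyses ATP, and they differ in what they are joined to. Mitotic kinesins are made as cells approach division, when they separate the spindle poles, move chromosomes and build the midzone at which the cell is cut. Transport kinesins carry vesicles, mitochondria and other cargo along microtubules, most of them outward, and neurons hold several members that are rare elsewhere. SCLC cells divide rapidly and also carry a neuroendocrine programme with secretory vesicles, so both sets are of interest in this tumour.

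To check the labels, Kdm1a itself was read before the kinesins. It had 3950 counts with sg1 and 5716 with sg2, against 11468 in the control. Scaled to library size, these were 0.331 of the control with sg1 (95% exact counting interval 0.319 to 0.343) and 0.427 with sg2 (0.414 to 0.441). Transcript was thus lower with both guides but still present, and the difference did not pass the threshold (log2 fold change -1.40, adjusted p = 0.0537, edgeR's quasi-likelihood test with Benjamini-Hochberg adjustment). An edited transcript can still be sequenced, so its level does not measure the protein. Markers of other cells were read in the same libraries. Over all 15936 genes tested, 6.33% rose, 1.70% fell and 37.8% lay below the control with both guides, and the marker counts are read beside these shares. Of 8 neuroendocrine markers, 7 lay below the control with both guides, Chga fell and Calca rose (adjusted p = 0.0455 and 0.0476, edgeR), calls kept under 4 and 3 of 10 alternatives. Of 6 fibroblast markers tested, 4 rose (Col1a1, Col3a1, Pdgfra and Pdgfrb), and the list's summed level was 77.6 RPKM (reads corrected for gene length and library size) with sg1 and 29.3 RPKM with sg2, against 0.590 RPKM in the control, with Lum at 0 in all 3 libraries. Of 3 endothelial markers tested, Kdr rose. Among immune markers, 2 were tested and neither passed. Cd68 had 414 counts with sg1 and 309 with sg2, against 196 in the control (adjusted p = 0.636, edgeR), and Cd79a had 36 with sg1 and 8 with sg2, against 14 in the control (adjusted p = 0.908, edgeR). The immune list summed to 9.71 RPKM with sg1 and 6.06 RPKM with sg2, against 4.71 RPKM in the control, with the pan-leukocyte marker Ptprc at 0 counts with sg1 and 1 with sg2, against 0 in the control. Of 4 neuron markers, Gad1 fell and the others did not pass. The list went both ways, with 2 above the control with both guides (Rbfox3 and Slc17a7) and 2 below it (Gad1 and Map2). Over all genes tested, 41.2% lay above with both guides. The part of these shifts in the kinesin values was not tested.

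Of the 12 mitotic kinesins none passed the test, and 8 lay slightly above the control with both guides (41.2% of all genes tested). Most of the neuronal transport kinesins lay below it with both guides (37.8% of all genes tested). Among the 8 neuronal transport kinesins, Kif1a and Kif5c fell, by 6.17-fold and 4.50-fold. In this class 6 lay at least 1.5-fold below the control with both guides, beside 13.0% of all genes tested. Outside these sets, Kif1c, Kif7 and Kif26b rose. In all, 5 of 37 tested kinesins passed edgeR's test, which is 13.5%, beside 8.03% of the 15936 genes tested. By direction, 3 kinesins rose, where 6.33% of all genes did, and 2 fell, where 1.70% of all genes did. The median log2 fold change was 0.30 for the mitotic and -1.29 for the neuronal transport kinesins, beside 0.06 for all genes tested. The p-values rest on the spread between the 2 guide libraries, moderated over all genes, and take the single control library to vary as they do; nothing in the labels says that these were separate cultures. In bulk RNA, fewer cells that carry a transcript and less of it per cell cannot be told apart.

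**Figure D1:**
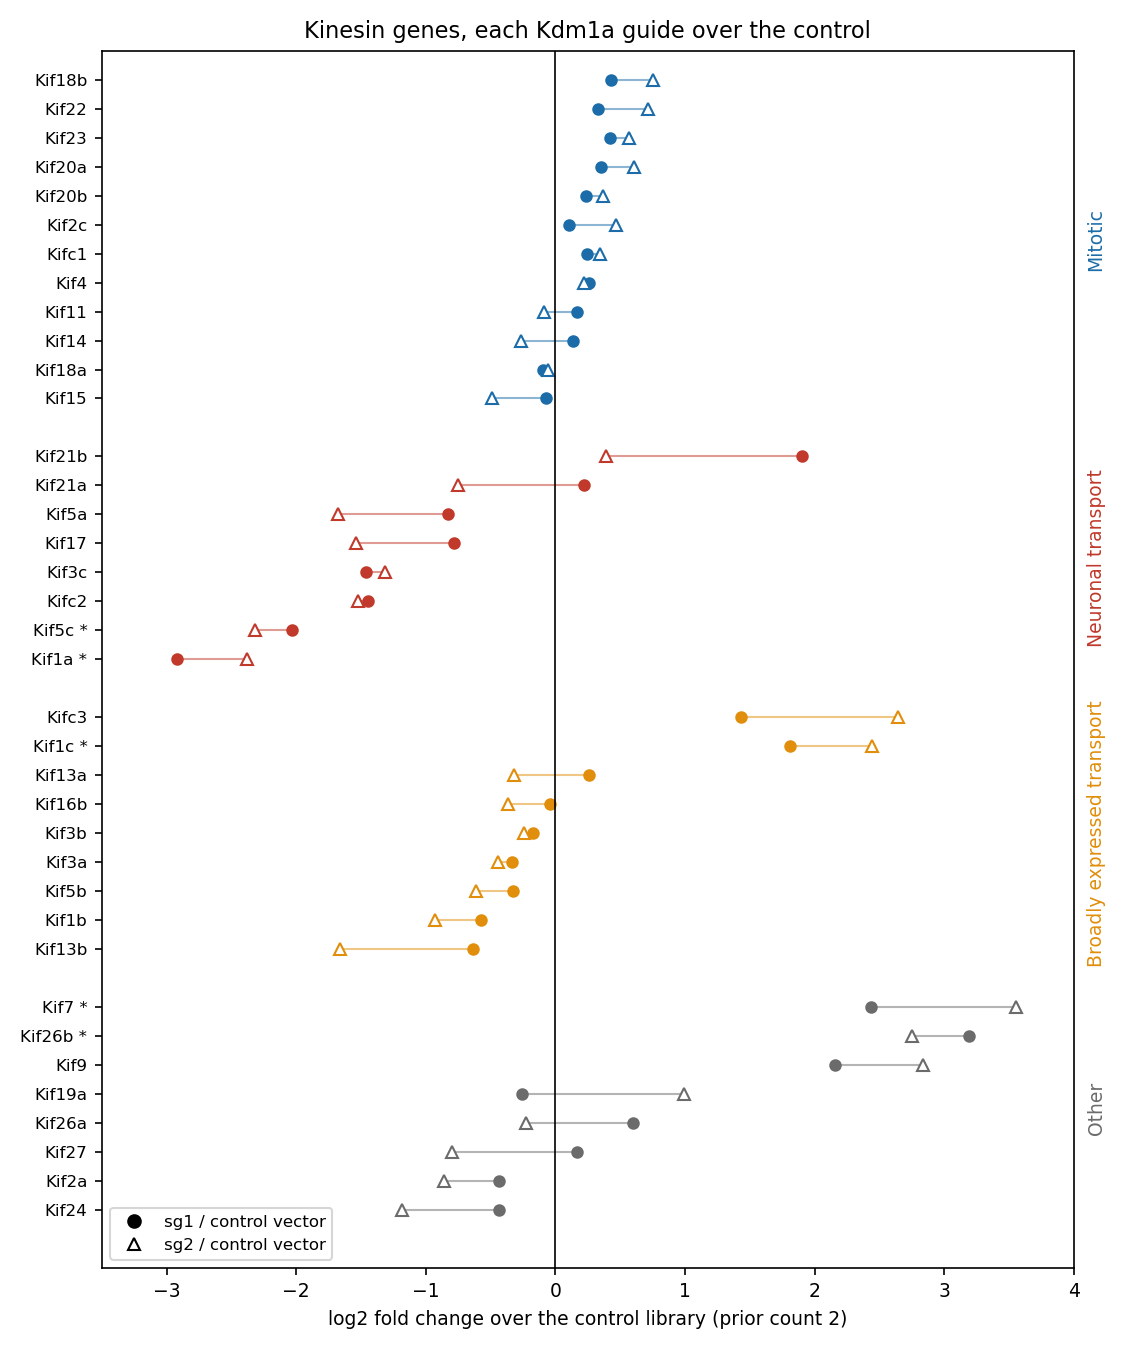
The plot gives the log2 fold change of each tested kinesin over the control (horizontal axis), grouped by role, with filled circles for sg1 and open triangles for sg2; an asterisk marks an adjusted p below 0.05. Mitotic kinesins lie close to 0, with fitted values between -0.27 and 0.60, while Kif1a and Kif5c lie far to the left and Kif7, Kif26b and Kif1c far to the right.

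The mitotic kinesins are shown with their promoters, because most of them share a short element there. RefSeq promoters of GRCm38.p6 were searched on both strands for the cell cycle genes homology region (CHR, TTTGAA), which is bound by the MuvB complexes that time late cell cycle genes, and for the CCAAT box, the site of NF-Y. Of the 40 kinesins, 32 matched the promoter table. The windows run from 70 bases before the annotated start to the 25 bases from the start on, 95 bases in all, and capitals mark CHR and CCAAT elements on either strand (TTCAAA and ATTGG are their reverse complements).
Kif11: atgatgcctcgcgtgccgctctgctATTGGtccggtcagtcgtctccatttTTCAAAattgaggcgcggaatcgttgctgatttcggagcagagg
Kif22: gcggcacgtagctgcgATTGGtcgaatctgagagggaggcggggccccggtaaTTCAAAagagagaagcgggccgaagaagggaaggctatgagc
Kif15: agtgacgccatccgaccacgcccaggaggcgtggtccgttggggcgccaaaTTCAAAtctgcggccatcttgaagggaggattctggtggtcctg
Kif23: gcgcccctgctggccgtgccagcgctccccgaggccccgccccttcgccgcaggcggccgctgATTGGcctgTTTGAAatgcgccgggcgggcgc
Kif18b: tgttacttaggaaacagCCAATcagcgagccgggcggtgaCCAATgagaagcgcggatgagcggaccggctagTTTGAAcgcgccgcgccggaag
Kif20b: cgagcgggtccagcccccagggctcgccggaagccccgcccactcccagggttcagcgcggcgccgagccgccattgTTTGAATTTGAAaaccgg
The windows lie at chr19:37376312-37376406 on the plus strand (Kif11), chr7:127042396-127042490 on the minus strand (Kif22), chr9:122951011-122951105 on the plus strand (Kif15), chr9:61946775-61946869 on the minus strand (Kif23), chr11:102925100-102925194 on the minus strand (Kif18b) and chr19:34922288-34922382 on the plus strand (Kif20b).

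In Kif11 the CHR begins 19 bases before the start, with a CCAAT box 45 bases before it, and Kif22 has the same pair at 17 and 54 bases. Over the full promoters, from 250 bases before the start to 50 after, 10 of 11 mitotic promoters held a CHR (90.9%), beside 17.9% of all 32851 promoters. Within the 95 bases shown, 8 of 11 did (72.7%), beside 4.93% of all. The mitotic windows printed above all come from these 8, whereas Kif14, Kif18a and Kif2c held no CHR there. Kif20a, the remaining mitotic kinesin, was not in the promoter table. Kif14 and Kif2c count among the 10, with a CHR 228 and 103 bases before annotated starts that lie well inside the gene. The Kif14 window is chr1:136467778-136467872 on the plus strand, in a gene that spans 136466301 to 136555938. The Kif2c window is chr4:117178748-117178842 on the minus strand, in a gene that spans 117159633 to 117182624. Whether transcription starts there was not tested. The CCAAT box was in 7 of 11 mitotic promoters (63.6%), beside 37.4% of all. An E2F motif, TTTGGCGC, was found in Kif15 and Kif18a only among kinesins, and 0.514% of all promoters hold it. A second E2F form, TTTCCCGC, was in no kinesin promoter and in 1.07% of all. These are matches of letters and not binding sites. The motifs were searched separately, and in Kif15 the E2F motif adjoins the CHR.

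**Figure D2:**
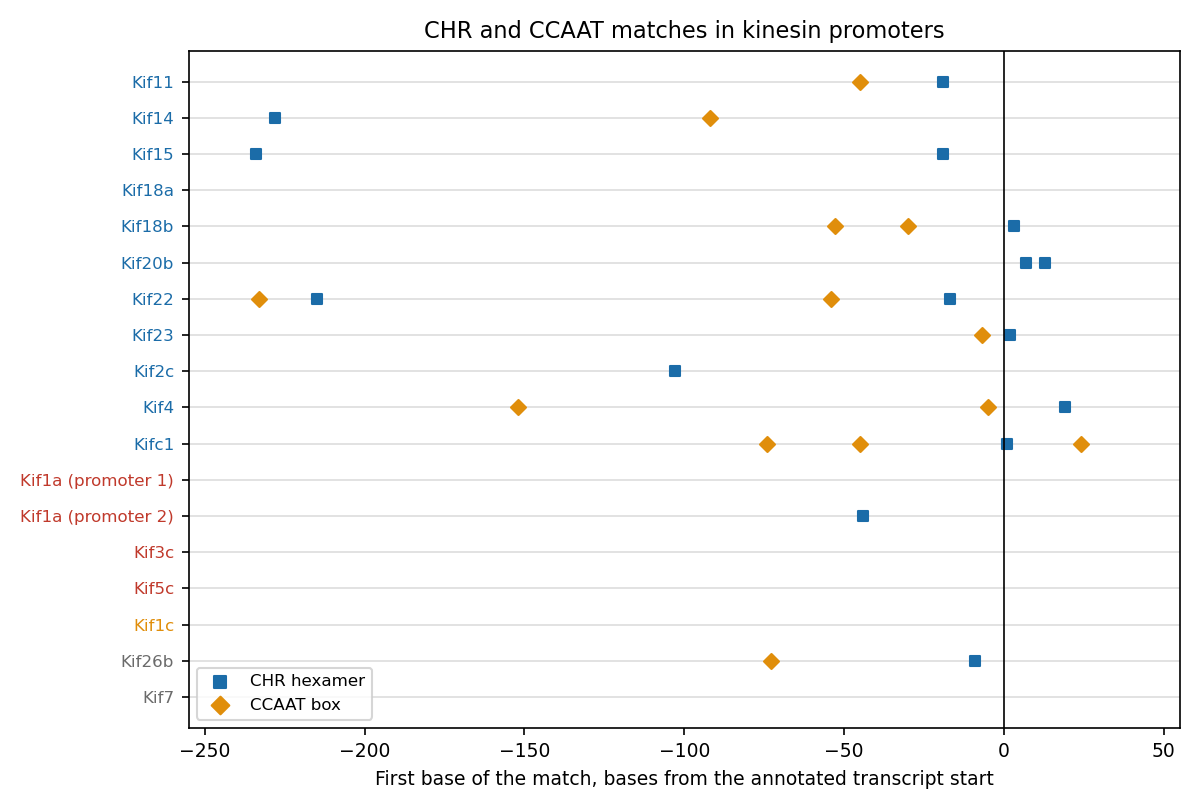
The map places each CHR (squares) and CCAAT match (diamonds) by its distance in bases from the annotated start (horizontal axis), with 1 line per promoter, for the 11 mitotic promoters above 7 promoters of Kif1a, Kif3c, Kif5c, Kif1c, Kif26b and Kif7. Of the mitotic promoters 10 hold a CHR, 8 of them close to the start. The annotated starts of Kif14, Kif2c and the second Kif1a promoter lie well inside the gene.

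Among the mitotic kinesins, the motors that build a bipolar spindle lay near the control or on either side of it. Kif11 (Eg5), which slides antiparallel microtubules apart, had 17887 counts with sg1 and 16809 with sg2, against 15282 in the control. As CPM (counts corrected for library size) it stood at 396 with sg1 and 332 with sg2, against 352 in the control, which lay between the guides (log2 fold change 0.05, SE 0.404, adjusted p = 0.977, edgeR's quasi-likelihood test with Benjamini-Hochberg adjustment). Kif15, which can also drive the poles apart, had the lowest fitted fold change of the class, at 144 CPM with sg1 and 108 CPM with sg2, against 152 CPM in the control. Kifc1, a minus-end directed motor that gathers the poles, stood at 112 CPM with sg1 and 120 CPM with sg2, against 94.8 CPM in the control. A near-identical copy, Kifc5b, had 3241 counts with sg1 and 3323 with sg2, against 2376 in the control, so how the counting divided reads between Kifc1 and Kifc5b is uncertain.

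The motors of the central spindle and of the final cut mostly lay above the control with both guides, without passing the test. Kif20a (MKLP2), which brings the chromosomal passenger complex to the midzone, had 10223 counts with sg1 and 13678 with sg2, against 7713 in the control. Its level was 248 ± 31.1 CPM in the knock-out (SD, n = 2) and 178 CPM in the control (log2 fold change 0.48, SE 0.419, adjusted p = 0.648, edgeR). Kif23 (MKLP1), the motor of centralspindlin, had 9630 counts with sg1 and 11946 with sg2, against 6918 in the control (225 ± 16.2 CPM in the knock-out and 160 CPM in the control, log2 fold change 0.49, SE 0.417, adjusted p = 0.635, edgeR). Kif20a overlaps Cdc23 over 4930 bases, and whether the counting used strand is not given in the sources used here. Kif20b, a motor of late cytokinesis, had 174 CPM with sg1 and 191 CPM with sg2, against 148 CPM in the control. Kif14, which acts at the midbody, was the exception, at 101 CPM with sg1 and 76.7 CPM with sg2, against 92.2 CPM in the control.

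The largest fitted difference of the class was that of Kif18b, a plus-end motor that shortens astral microtubules. It had 5722 counts with sg1 and 8058 with sg2, against 4090 in the control (143 ± 23.0 CPM in the knock-out and 94.3 CPM in the control, log2 fold change 0.60, SE 0.430, adjusted p = 0.555, edgeR). Kif22 (Kid), a chromokinesin that pushes chromosome arms from the poles, had 9250 counts with sg1 and 13545 with sg2, against 7095 in the control (log2 fold change 0.53, SE 0.427, adjusted p = 0.616, edgeR). Both lay above the control with each guide, and further above it with sg2. Kif4, the other chromokinesin, had 189 CPM with sg1 and 183 CPM with sg2, against 157 CPM in the control. Kif2c (MCAK), a microtubule depolymerase at centromeres, had 140 CPM with sg1 and 181 CPM with sg2, against 130 CPM in the control. Kif18a, which damps chromosome movement, was nearly level, at 55.6 CPM with sg1 and 57.1 CPM with sg2, against 59.5 CPM in the control.

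Of the 12 mitotic kinesins, 8 lay above the control with both guides, beside 41.2% of all genes tested, and 2 below it with both guides (Kif15 and Kif18a), beside 37.8% of all genes. None reached 1.5-fold with both guides in either direction. Adjusted p-values ran from 0.555 to 0.977 (edgeR), and 0 members reached 0.05 without adjustment. DESeq2, limma-voom and limma-trend also gave 0 calls. Limma-trend on log2(RPKM + 1) called only 31 of the 15936 genes tested, so its 0 here carries little weight. A p that misses the threshold does not show that levels were equal, and the standard errors of these log2 fold changes were 0.404 to 0.430. Kif2a and Kif2b, depolymerases that also act on the spindle and the kinetochore, were sorted with the other kinesins and are not in these counts. Kif2a stood at 0.738 of the control with sg1 and 0.550 with sg2, and Kif2b had 0 counts. The genes that work beside the 12 mitotic motors gave a like picture. Of 24 mitotic partners tested, 0 passed, also without adjustment and with limma and DESeq2. Among them were Racgap1, Kif23's partner in centralspindlin, the kinases Aurka and Plk1, and Cenpe, itself a mitotic kinesin that the symbol rule leaves out. Of the 24, 20 lay above the control with both guides, and the median log2 fold change was 0.44. The largest were Aurka (0.89, adjusted p = 0.368) and Cdc20, an activator of the anaphase-promoting complex (0.82, adjusted p = 0.398, both edgeR's quasi-likelihood test). Mki67, the proliferation marker, singled out after its values were seen, had 59097 counts with sg1 and 28200 with sg2, against 58410 in the control.

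Neuronal transport kinesins were led by Kif1a, a fast motor for synaptic vesicle precursors and dense core vesicles (NM_001110315; GRCm38 chromosome 1, 93015455 to 93102039). It had 1778 counts with sg1 and 2907 with sg2, against 12962 in the control. The level was 48.4 ± 12.8 CPM in the knock-out (SD, n = 2) and 299 CPM in the control, and Kif1a fell by 2.63 on the log2 scale (SE 0.416, adjusted p = 0.00138, edgeR's quasi-likelihood test with Benjamini-Hochberg adjustment). Both guides lay far below the control, at 0.132 of its level with sg1 (95% exact counting interval 0.125 to 0.139) and 0.192 with sg2 (0.185 to 0.200). The call was kept under 9 of 10 alternative settings and lost with limma-trend on log2(RPKM + 1), where the adjusted p was 0.0753; over the 10 it ran from 3.93e-07 to 0.0753.

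Kif5c fell as well. It encodes a heavy chain of conventional kinesin that is enriched in neurons (NM_008449; chromosome 2, 49619286 to 49774778). There were 2678 counts with sg1 and 2456 with sg2, against 10530 in the control, so the guides differed little and both lay below the control. The level was 53.9 ± 7.61 CPM in the knock-out and 243 CPM in the control (log2 fold change -2.17, SE 0.401, adjusted p = 0.00414, edgeR). Like that of Kif1a, this call was lost only with limma-trend on log2(RPKM + 1), with an adjusted p of 0.0830 in a range of 2.85e-05 to 0.0830. Kif5a, the second neuronal heavy chain, had 2496 counts with sg1 and 1544 with sg2, against 4251 in the control. Both guides lay below the control for Kif5a, yet it did not pass (42.9 ± 17.5 CPM in the knock-out and 98.0 CPM in the control, log2 fold change -1.19, SE 0.456, adjusted p = 0.161, edgeR).

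The promoter windows of the genes that passed are given in the same form as those of the mitotic kinesins, for comparison of the elements. Kif1a has a second annotated promoter, shown after the first. Its start lies well inside the gene, which spans 93015455 to 93102039 on the minus strand. Whether transcription starts there was not tested.
Kif1a: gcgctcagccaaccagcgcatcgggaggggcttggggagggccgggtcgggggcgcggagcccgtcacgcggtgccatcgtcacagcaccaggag
Kif1a, second promoter: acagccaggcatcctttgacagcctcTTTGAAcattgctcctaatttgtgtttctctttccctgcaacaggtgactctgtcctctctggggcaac
Kif5c: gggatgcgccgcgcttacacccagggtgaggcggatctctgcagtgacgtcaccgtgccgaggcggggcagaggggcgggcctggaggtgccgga
Kif1c: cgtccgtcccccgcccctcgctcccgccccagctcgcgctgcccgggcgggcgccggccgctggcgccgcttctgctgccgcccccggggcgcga
Kif26b: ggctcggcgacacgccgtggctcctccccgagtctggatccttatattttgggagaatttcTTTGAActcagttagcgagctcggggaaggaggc
Kif7: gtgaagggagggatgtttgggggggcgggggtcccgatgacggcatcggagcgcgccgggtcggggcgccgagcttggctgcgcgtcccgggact
The windows lie at chr1:93101850-93101944 on the minus strand and chr1:93082456-93082550 on the minus strand (Kif1a), chr2:49619216-49619310 on the plus strand (Kif5c), chr11:70700478-70700572 on the plus strand (Kif1c), chr1:178529055-178529149 on the plus strand (Kif26b) and chr7:79715683-79715777 on the minus strand (Kif7). A CHR is present in the second promoter of Kif1a and in Kif26b. Of 6 neuronal transport promoters, 1 held a CHR, the second of Kif1a inside the gene, and 0 a CCAAT box. Of 7 promoters of broadly expressed transport kinesins, 0 held a CHR and 4 a CCAAT box, and of 12 promoters of the other kinesins 2 and 5 did. The RE1 element, which recruits the neuronal gene repressor REST, was found in 0 kinesin promoters and in 0.0639% of all. The absence of a match says only that these letters are not in this window.

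The remaining neuronal transport kinesins did not pass. Kif3c, a neuronal subunit of heteromeric kinesin-2, had 1009 counts with sg1 and 1254 with sg2, against 2674 in the control (log2 fold change -1.39, adjusted p = 0.0692, edgeR). Both guides lay well below the control, and Kif3c passed under 2 of 10 alternatives (adjusted p 0.0357 to 0.315). Kifc2, a minus-end directed motor of axons and dendrites, was scarce, with 132 counts with sg1 and 140 with sg2, against 349 in the control (2.85 ± 0.110 CPM in the knock-out and 8.05 CPM in the control, log2 fold change -1.50, SE 0.640, adjusted p = 0.226, edgeR). Kif17, which carries NMDA receptors in mouse dendrites, was scarcer still, at 21 counts with sg1 and 13 with sg2, against 36 in the control. Kif3c overlaps the non-coding gene 1110002L01Rik over 2612 bases, and Kifc2 overlaps Cyhr1 over 425 bases and Foxh1 over 368.

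The related members Kif21a and Kif21b, which hold microtubule growth in check, did not follow the rest. Kif21a had 3633 counts with sg1 and 2080 with sg2, against 2998 in the control, which lay between the guides. Kif21b was above the control with both, at 29.7 CPM with sg1 and 10.4 CPM with sg2, against 7.89 CPM in the control (log2 fold change 1.34, adjusted p = 0.315, edgeR). It was the only member of its class above the control with both guides, and the excess was mostly that of sg1. Over the class, 2 fell and 0 rose, 6 of 8 lay below the control with both guides (37.8% of all genes), and each of those 6 was at least 1.5-fold below it with both guides, beside 13.0% of all genes tested. The class median was -1.14 with sg1 alone and -1.53 with sg2 alone.

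**Figure D3:**
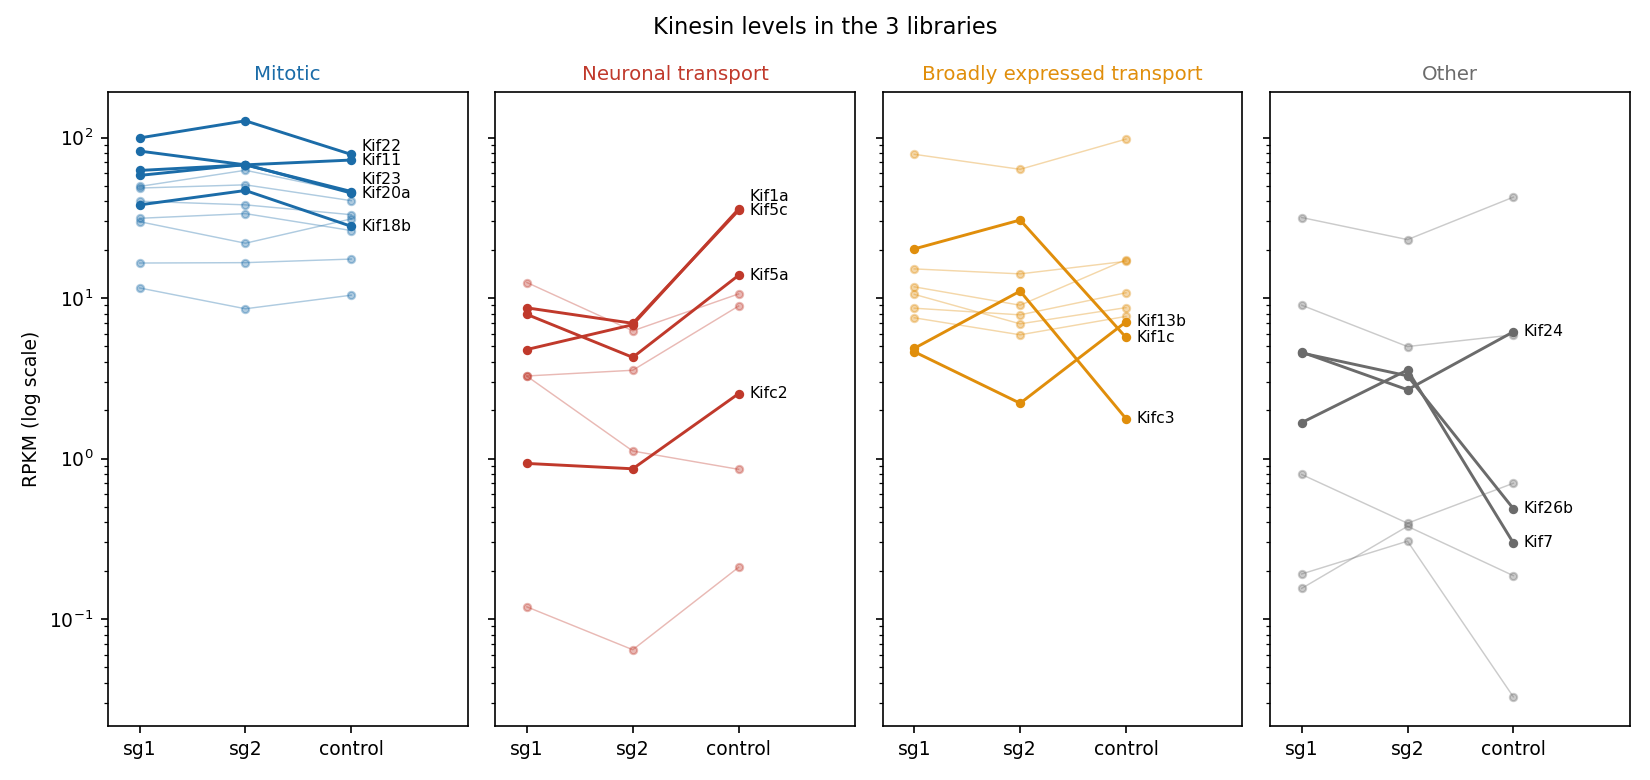
RPKM of each kinesin (vertical axis, log scale) are drawn for sg1, sg2 and the control, in panels by role; lines join the values of 1 gene and genes with a 0 are left out. Kif1a and Kif5c stood at 35.8 and 35.2 RPKM in the control, among the mitotic motors, and at 4.27 to 8.69 RPKM together with Kif5a in the knock-out libraries.

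Transport kinesins of broad expression gave 1 call. Kif1c, which moves vesicles between Golgi and cell periphery and delivers integrins (NM_153103; chromosome 11, 70700396 to 70731970), had 6169 counts with sg1 and 10693 with sg2, against 1685 in the control. It rose 4.48-fold (174 ± 52.9 CPM in the knock-out and 38.8 CPM in the control, log2 fold change 2.16, SE 0.490, adjusted p = 0.0146, edgeR). Both guides were well above the control, sg2 the higher. The call was lost with limma-trend on log2(RPKM + 1), where the adjusted p was 0.0990, in a range of 0.000154 to 0.0990. Kifc3, a minus-end directed motor of epithelial cells, had 824 counts with sg1 and 2144 with sg2, against 292 in the control, with sg2 far above sg1. Its adjusted p was 0.0513 (30.3 ± 17.1 CPM in the knock-out and 6.73 CPM in the control, log2 fold change 2.17, SE 0.621, edgeR), and it passed under 3 of 10 alternatives, the DESeq2 Wald test among them (adjusted p 0.00469 to 0.292).

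The other broadly expressed transport kinesins were level or lower. Kif13b, which carries lipid-bound cargo, had 1168 counts with sg1 and 639 with sg2, against 1743 in the control (19.3 ± 9.36 CPM in the knock-out and 40.2 CPM in the control, log2 fold change -1.06, SE 0.505, adjusted p = 0.295, edgeR). Kif5b, the heavy chain used in most cells, had 473 CPM with sg1 and 390 CPM with sg2, against 595 CPM in the control. Kif1b, which transports mitochondria and synaptic vesicle precursors, had 174 CPM with sg1 and 137 CPM with sg2, against 260 CPM in the control. These 3 lay below the control with both guides without passing. Kif3a and Kif3b, the ciliary and axonal kinesin-2 pair, lay below it too, Kif3a at 46.9 CPM with sg1 and 43.6 CPM with sg2, against 59.2 CPM in the control. Kif3b stood at 85.4 CPM with sg1 and 81.3 CPM with sg2, against 96.3 CPM in the control. Kif13a and Kif16b, motors of recycling and early endosomes, had log2 fold changes near 0 and of -0.20. Of the 9 members 1 rose, 0 fell, and 6 lay below the control with both guides, with a median of -0.21, where 6.33% of all genes rose, 1.70% fell and 37.8% lay below with both guides.

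Among the other kinesins, Kif7 and Kif26b rose. Kif7 regulates Gli factors at the tip of the primary cilium in Hedgehog signalling (NM_001291222; chromosome 7, 79698098 to 79715772), and it had 341 counts with sg1 and 831 with sg2, against 59 in the control. The level was 7.55 CPM with sg1 and 16.4 CPM with sg2, against 1.36 CPM in the control, on average 8.82-fold higher (log2 fold change 3.14, SE 0.747, adjusted p = 0.0199, edgeR). Both guides lay above the control, sg2 the more. The call failed with limma-voom (adjusted p = 0.0819) and with both limma-trend settings (0.118 and 0.205), over a range from 0.000322, and Kif7 overlaps Ticrr over 51 bases.

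Kif26b, an atypical kinesin that acts in kidney development in mice and in Wnt5a and Ror signalling (NM_001161665; chromosome 1, 178529125 to 178932857), had 1517 counts with sg1 and 1252 with sg2, against 158 in the control. Its level was 29.2 ± 6.26 CPM in the knock-out and 3.64 CPM in the control, 8.01-fold higher (log2 fold change 3.00, SE 0.576, adjusted p = 0.00525, edgeR). Here both guides were high and close to each other. The call was lost with limma-trend on RPKM, at an adjusted p of 0.135 with a pseudocount of 1 and 0.0694 with 0.1, over a range from 1.22e-06. Its paralogue Kif26a, known from enteric nerve development in mice, had 62.3 CPM with sg1 and 35.2 CPM with sg2, against 41.2 CPM in the control, which lay between the guides. Kif24, a depolymerase that restrains cilium formation, had 1162 counts with sg1 and 775 with sg2, against 1510 in the control (log2 fold change -0.76, adjusted p = 0.480, edgeR). Kif2a, a depolymerase of interphase and spindle microtubules, had 133 CPM with sg1 and 99.3 CPM with sg2, against 181 CPM in the control, and overlaps Dimt1 over 2330 bases.

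The motors of motile cilia were scarce in every library. Kif9 had 30 counts with sg1 and 55 with sg2, against 5 in the control, Kif19a had at most 1.32 CPM and Kif27 at most 3.54 CPM, and none of them passed. Kif6 had 6 counts with sg1 and 10 with sg2, against 0 in the control, and Kif12, an epithelial kinesin, had 0 with each guide and 11 in the control. Kif2b, a kinetochore depolymerase, had 0 counts in all 3 libraries, for which the upper limit is 3 counts. Such limits, like the counting intervals, leave out all error but that of counting, because the reads carry no molecular identifiers. Over the 8 members tested of the 11 others, 2 rose and 0 fell, beside 6.33% and 1.70% of all genes, and the median log2 fold change was 0.38.

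Levels per gene length show how the balance of motors differed. Summed over the 12 mitotic kinesins, RPKM were 568 with sg1 and 609 with sg2, against 475 in the control. For the 8 neuronal transport kinesins the sums were 41.4 with sg1 and 29.9 with sg2, against 108 in the control. The sum over all 40 kinesins was 824 with sg1 and 829 with sg2, against 813 in the control. RPKM summed over all genes were 386018 with sg1 and 439230 with sg2, against 374691 in the control, so RPKM sums are not on a common total. On the CPM scale, the 40 kinesins summed to 3715 with sg1 and 3593 with sg2, against 4033 in the control, and the 12 mitotic kinesins to 2084 with sg1 and 2183 with sg2, against 1781 in the control. As a share of the summed kinesin RPKM, mitotic kinesins held 68.9% with sg1 and 73.5% with sg2, against 58.4% in the control, and neuronal transport kinesins 5.03% with sg1 and 3.61% with sg2, against 13.3% in the control. Among the 10 most abundant kinesins per length, 8 were mitotic with sg1 and 9 with sg2, against 6 in the control, where Kif1a and Kif5c also ranked among them. These sums are descriptive, and their parts include members that did not pass the test.

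The leading paralogue of a family differed for Kif1 and for the Kifc2 and Kifc3 pair. Of the summed RPKM of Kif1a, Kif1b and Kif1c, Kif1a made up 13.0% with sg1 and 14.7% with sg2, against 60.9% in the control. Kif1c made up 55.1% with sg1 and 65.9% with sg2, against 9.67% in the control, so the leading member was Kif1c with each guide and Kif1a in the control. Among the conventional kinesin heavy chains, Kif5b led in every library, at 83.8 ± 1.68% in the knock-out (SD, n = 2) and 66.6% in the control. Kif5c held 9.12% with sg1 and 9.32% with sg2, against 23.9% in the control, while the share of Kif5a differed less (8.30% with sg1 and 5.72% with sg2, against 9.44% in the control). In the kinesin-2 family, Kif3c held 12.1% with sg1 and 13.9% with sg2, against 24.3% in the control. Kif26b held 33.5% of Kif26a and Kif26b with sg1 and 39.7% with sg2, against 7.63% in the control. In the pair of minus-end directed transport motors Kifc2 and Kifc3, Kifc3 held 83.9% with sg1 and 92.8% with sg2, against 41.1% in the control. This pair was scarce in the control, at 4.31 RPKM in sum, and neither member passed the test.

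**Figure D4:**
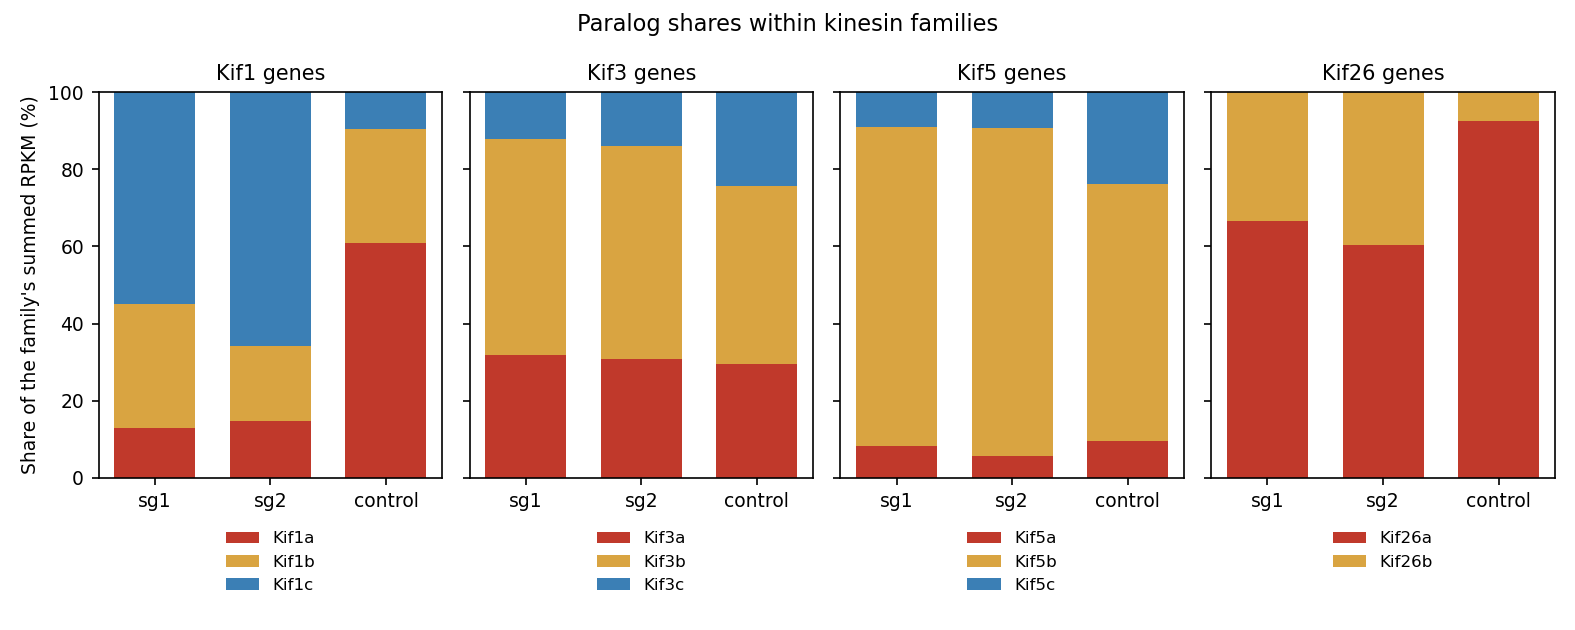
Stacked bars give each paralogue's percent of its family's summed RPKM in sg1, sg2 and the control. Kif1c fills most of the Kif1 bar with both guides, and Kif1a fills 60.9% of it in the control.

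Kinesins do not bind most cargo directly, and the light chains and adaptors that link them to it were read alongside. Of 22 such genes, 0 fell and 1 rose, beside 1.70% and 6.33% of all genes tested. With both guides 16 lay below the control (37.8% of all genes), 6 of them at least 1.5-fold (13.0% of all genes). The median log2 fold change was -0.28. The gene that rose was Fez1, an adaptor of conventional kinesin, with 295 counts with sg1 and 527 with sg2, against 7 in the control (52.5-fold higher, log2 fold change 5.69, SE 0.924, adjusted p = 0.00164, edgeR), a call kept under 9 of 10 alternatives. Of the members below the control, Klc1 and Madd were picked after their values were seen. Klc1 is the main light chain of conventional kinesin and stood at 52.5 RPKM with sg1 and 43.0 RPKM with sg2, against 81.5 RPKM in the control (adjusted p = 0.353, edgeR). Madd, which links Kif1a and Kif1b to Rab3 vesicles, had 15.4 RPKM with sg1 and 9.31 RPKM with sg2, against 24.2 RPKM in the control (adjusted p = 0.251, edgeR). Neither passed, and both were lower with sg2 than with sg1. The minus-end directed dynein and dynactin genes, 20 in number, gave 0 calls with edgeR, beside 8.03% of all genes tested. DESeq2, limma-voom and limma-trend also gave 0 calls for these genes, though limma-trend on log2(RPKM + 1) called only 31 genes in all. With edgeR 1 unadjusted p was under 0.05, and the median was -0.07. Their largest differences were Bicd1, a cargo adaptor (-1.38, adjusted p = 0.124), and the light chain Dynll1 (0.98, adjusted p = 0.419, both edgeR), which had 6562 counts with sg1 and 20581 with sg2, against 6082 in the control.

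**Figure D5:**
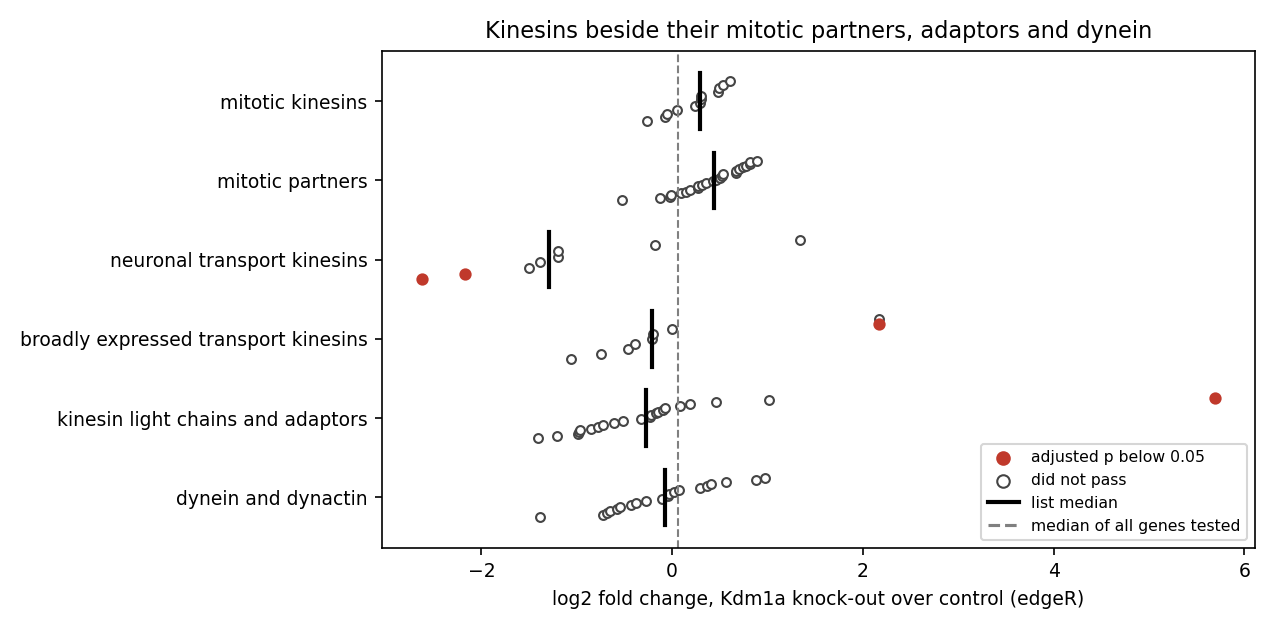
Each point is the fitted log2 fold change of 1 gene in 3 classes of kinesin and in the lists of mitotic partners, adaptors and dynein; filled points passed the test, bars are list medians and the dashed line is the median of all genes tested, 0.06. The medians run from -1.29 in the neuronal transport kinesins to 0.44 in the mitotic partners, and Fez1, at 5.69, lies apart from the other adaptors.

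Gene length moved with the result and is given beside it. The 3188 longest genes tested, out of 15936, had a median log2 fold change of -0.11 with sg1 and -0.45 with sg2. Of the neuronal transport kinesins 6 of 8 belong to these, as do 8 of 9 broadly expressed transport kinesins, 5 of 12 mitotic kinesins and 3 of 8 others. With the length trend removed, 5 kinesins passed, 3 higher and 2 lower, and the medians were 0.36 for the mitotic and -1.10 for the neuronal transport class. Kif1a had a log2 fold change of -2.20 in that fit (adjusted p = 0.0106, edgeR).

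Kinesins also stood in both lists of changed genes that the authors deposited, which come from the same 3 libraries. The lists are read beside the whole table, in which 40 of 24523 genes were kinesins. Of the 15936 genes with enough counts to be tested here, 37 were kinesins. In the authors' deposited table of lower genes, 9 of 2154 were kinesins: Kif1a, Kif5c, Kif5a, Kif3c, Kifc2, Kif1b, Kif13b, Kif2a and Kif24. The authors' deposited table gave Kif1a a fold of 0.133 for sg1 and 0.190 for sg2 over the control. In the authors' deposited table of higher genes, 4 of 1833 were kinesins, namely Kif1c, Kifc3, Kif7 and Kif26b. None of the 12 kinesins sorted here as mitotic stood in either list of the authors' deposited tables. Absence from a list depends on its cut-off. The largest folds in the list of lower genes were 0.7495 for sg1 and 0.7499 for sg2. Whether the list of higher genes used a matching cut-off was not examined. Kif18b, in neither list, stood at 1.34 of the control's CPM with sg1 and 1.69 with sg2. Kif2a, in the list of lower genes, also acts on spindle microtubules but was sorted with the other kinesins.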

How the data were processed

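RNA of 3 libraries of mouse SCLC line 3 was sequenced, 1 library per guide against Kdm1a and 1 of the control vector. The authors deposited raw counts per gene. The submitters' processing notes name HTSeq 0.6.1, TopHat2 2.0.12, Bowtie2 2.2.3 and the build mm10. No strand or multiple-mapping setting is given in the sources used here. RPKM, which scale reads by library size and gene length, stand beside the counts in the deposited table. The authors' deposited list of lower genes also gives a ratio, the fold of each guide over the control.

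Counts as deposited were tested with edgeR 4.0.16 (R 4.3.3): TMM factors, filterByExpr on the group, the quasi-likelihood F test, two-sided, and Benjamini-Hochberg adjustment over the 15936 genes kept, with a threshold of 0.05. CPM were computed on the effective library size, and a fold is the ratio of the group means in CPM. Standard errors were obtained by dividing the log2 fold change by the root of F. With 1 residual degree of freedom, moderated by 11.5 prior degrees of freedom, the common coefficient of variation was 0.387. A gene lay above or below the control with both guides if both guides' CPM were higher, or both lower, than the control's. A prior count of 2 entered the per-guide log2 fold changes. Total counts per library are given with the groups. Counting intervals of ratios are exact, at 95%.

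Named in full are the kinesins that passed, Kif11, Kif20a, Kif23, Kif1a, Kif5a and Kif5c, and per role class the 3 with the largest fold change at 1 CPM or more. From each other list, the text names those that passed, at most 4, or the 2 largest, and Ptprc as a defining immune marker. Others are given as counts or levels, except that Kif3c, Kif21b, Klc1 and Madd also carry test values outside this rule. Kif13a and Kif16b are given by log2 fold change alone. The members, role classes and lists were chosen with earlier results of these data known. Alternatives were DESeq2 1.42.0 size factors and Wald test, upper-quartile factors, library totals, no filter, a mean count of at least 50, limma 3.58.1 (voom, and trend on log2(RPKM + 1) and log2(RPKM + 0.1)), a loess length correction and each guide left out. Scripts were tested on simulated data. Positions and promoters are those of RefSeq on GRCm38.p6, the assembly of mm10.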

Additional observations from a re-analysis of the deposited data

How the results depend on the processing

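Of 150 pairs of the 15 named kinesins and 10 tested alternatives, 139 kept direction and side of the threshold, 8 lost the call, 3 gained it (Kifc3) and 0 changed direction. The alternatives that count reads, edgeR with other scaling factors, other filters or the length correction and the DESeq2 Wald test, gave 970 to 1892 genes and 5 to 7 kinesins that passed, where the reported numbers are 1279 and 5. Fewer passed with limma: 711 genes with limma-voom, 679 with limma-trend on log2(RPKM + 0.1) and 31 with limma-trend on log2(RPKM + 1). The kinesins that passed were 4 with limma-voom, 3 with the pseudocount of 0.1 and 0 with that of 1, and the cause was not tested. The higher and lower calls were 606 and 73 with the smaller pseudocount and 27 and 4 with the larger, against 1008 and 271. With sg1 or sg2 left out, which leaves 1 library against 1 and no test, the median log2 fold change was 0.24 to 0.35 for the mitotic and -1.53 to -1.14 for the neuronal transport kinesins. No paired analysis was possible because the groups share fewer than 2 replicate numbers. Depth limits the scarce kinesins, Kif17, Kif9 and those not tested, to at most 55 counts, and a single control library limits every comparison.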
